A study of Mus musculus with 12 samples.

Results

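The circadian clock genes described here are the core clock genes and the output genes they drive, 10 in all, chosen by name: Per1, Per2, Per3, Cry1, Nr1d1, Nr1d2, Dbp, Tef, Arntl and Clock. The array carries 18 probes for them among its 45281, and 14 of the 18, for 9 of the 10 genes, are among the 21004 probes of the normalized table. That table holds 15424 gene symbols in all. RNA of femoral head cartilage from hips of C57BL6 mice was measured on 12 Illumina mouse BeadChip arrays in 4 groups of 3. The mice were wild type (WT) or lacked Mapk9, the gene of a JNK kinase (Mapk9 KO), and the labels give their age as 4 to 6 weeks. The injury was the avulsion of the femoral epiphysis itself, done after death. Control samples were frozen at once, and injured samples spent 4 h in culture without serum. Control hips were therefore also avulsed, and injury and 4 h of culture cannot be told apart in any comparison of injured with control hips. Each WT replicate pooled the hips of several mice, the Mapk9 KO samples are not described in the methods, and the time of day of collection is not given in the sources used here.

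The circadian clock is a feedback loop of transcription that runs in most cells, chondrocytes included. The proteins of Clock and Arntl (also called Bmal1) bind E-box sequences together and activate the Per and Cry genes, whose proteins return to the nucleus and inhibit them. The same pair activates Nr1d1 and Nr1d2, nuclear receptors that repress Arntl, and the output genes Dbp and Tef, transcription factors that act through D-box sequences. Per1 and Per2 are also known as genes that respond within hours to serum, cAMP and glucocorticoids outside the daily cycle.

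The table of RefSeq promoter sequences (GRCm38.p6) held entries for 9 of the 10 genes, 14 start sites in all, and none for Per2. The 250 bases before each start were searched on both strands for the E-box CACGTG, the D-box TTANGTAA, the ROR element TAGGTCA that Nr1d1 protein also binds, and the cAMP response element TGACGTCA. Of all 32851 windows of this length, 6.02% held the E-box, 2.06% the D-box, 2.23% the ROR element and 1.55% the cAMP response element. Among the clock genes, 5 of the 14 windows held a match. The first Per1 start, both Tef starts and the Cry1 start each held 1 E-box, and the Per3 start held 2 D-boxes. No window of Dbp, Nr1d1, Nr1d2, Arntl or Clock held any of the 4 motifs, which says only that these letters are not in these bases. The 4 windows shown were picked among those that hold a match. Of their genes, Per1 and Ciart (a repressor of the Clock and Arntl pair, from a wider list of clock genes) were upregulated in both genotypes. Per3 holds the D-boxes, and the Tef probes disagreed. Each window is written 5′ to 3′ on the strand of its gene and ends at the base before the start, with the motif matches in capitals. None of the matches overlapped another motif of the search.
Per1, chr11:69098699-69098948, plus strand: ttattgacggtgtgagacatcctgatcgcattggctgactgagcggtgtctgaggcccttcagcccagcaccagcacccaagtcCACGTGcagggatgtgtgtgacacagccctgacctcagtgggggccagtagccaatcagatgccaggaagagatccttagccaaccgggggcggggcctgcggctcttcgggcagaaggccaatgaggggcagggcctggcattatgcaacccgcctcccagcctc
Per3, chr4:151044666-151044915, minus strand: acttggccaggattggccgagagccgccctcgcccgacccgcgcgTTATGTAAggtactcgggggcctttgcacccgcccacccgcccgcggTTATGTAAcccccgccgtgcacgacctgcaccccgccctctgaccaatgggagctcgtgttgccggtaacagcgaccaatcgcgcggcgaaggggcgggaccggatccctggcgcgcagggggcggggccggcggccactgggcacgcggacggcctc
Tef, chr15:81802423-81802672, plus strand: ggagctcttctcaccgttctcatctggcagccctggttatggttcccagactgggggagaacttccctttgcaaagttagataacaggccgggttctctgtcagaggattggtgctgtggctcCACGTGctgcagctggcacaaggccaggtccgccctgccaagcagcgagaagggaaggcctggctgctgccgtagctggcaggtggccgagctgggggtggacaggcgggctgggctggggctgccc
Ciart, chr3:95882229-95882478, minus strand: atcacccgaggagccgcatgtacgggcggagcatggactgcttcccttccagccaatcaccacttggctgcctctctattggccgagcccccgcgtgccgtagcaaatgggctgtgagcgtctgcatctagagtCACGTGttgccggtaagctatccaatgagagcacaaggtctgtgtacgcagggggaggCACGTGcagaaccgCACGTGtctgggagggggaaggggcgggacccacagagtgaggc
The capitals mark an E-box 166 to 161 bases before the Per1 start, D-boxes 205 to 198 and 158 to 151 bases before the Per3 start, an E-box 127 to 122 bases before the Tef start and E-boxes 116 to 111, 58 to 53 and 44 to 39 bases before the Ciart start. The wider list had 18 windows, for 14 of its genes. Of its other upregulated genes, Nfil3 and Noct had windows without an E-box, and Bhlhe40 and Csnk1d had no entry. Bhlhe41, which is outside the normalized table, held 1 E-box. A match is a description of the sequence and does not show that a factor was bound.

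All values below are normalized log2 values, in which a difference of 1 is a fold change of 2. They compare samples at 1 probe and not levels between probes. A gene with several probes was counted by its brightest, called probe 1, and passed when it changed more than 2-fold at an adjusted p below 0.05 (limma, Benjamini-Hochberg over the 21004 probes). A probe was detected on an array when its detection p was under 0.05. With 3 arrays a group, the smallest two-sided p an exact permutation test allows is 0.1, so tests of single genes rest on limma.

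Per1, which encodes a repressor of the loop, had the largest rise of these genes in both genotypes. Its values at probe 1 were 8.99, 8.08 and 8.49 on the WT control arrays and 10.93, 11.12 and 10.78 on the WT injured arrays. On the Mapk9 KO arrays they were 7.66, 7.98 and 7.76 in control hips and 10.70, 10.69 and 10.64 in injured hips. Injured and control arrays did not overlap in either genotype. Per1 was upregulated post injury by 2.42 in WT (SE 0.25, n = 3 per group, adjusted p = 0.000131 by limma), a fold change of 5.36, and by 2.88 in Mapk9 KO (SE 0.17, adjusted p = 6.52e-07 by limma). The other Per1 probe gave 2.45 and 2.94. In bulk tissue, a change in the share of a cell type and a change in RNA per cell cannot be told apart.

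Per2, the partner of Per1 in the repressor complex, was also upregulated. Probe 1 read 8.51, 8.48 and 8.01 in WT control hips, 10.05, 9.92 and 9.54 in WT injured hips, 7.62, 7.66 and 7.42 in Mapk9 KO control hips, and 10.06, 10.03 and 10.10 in Mapk9 KO injured hips. The injured groups overlapped with each other but with neither control group. The change was 1.505 in WT (SE 0.23, adjusted p = 0.0012) and 2.50 in Mapk9 KO (SE 0.17, adjusted p = 1.36e-06). At probe 2 it was 0.93 in WT, under the fold limit (adjusted p = 0.0154), and 1.72 in Mapk9 KO (adjusted p = 2.31e-05). The WT change of probe 2 crossed the limit without control replicate 2 (1.02, adjusted p = 0.0127) or injured replicate 3 (1.15, adjusted p = 0.0104). Both probes lie in the same transcript record, and another Per2 probe, outside the normalized table, was undetected on all 12 arrays.

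Per3, the third Period gene, was near background. Its probe was detected on 2 of 3 WT control, 1 of 3 WT injured, 0 of 3 Mapk9 KO control and 2 of 3 Mapk9 KO injured arrays. It read 6.41, 5.79 and 6.69 in WT control hips and 6.10, 5.47 and 5.75 in WT injured hips, groups that overlapped, with a change of -0.52 (SE 0.27, adjusted p = 0.195). In Mapk9 KO it read 5.64, 4.66 and 5.29 in control hips and 6.35, 5.59 and 6.71 in injured hips. The lowest injured array lay below the highest control array. By the bound, Per3 was 1.22-fold higher, but this includes injured replicate 2, itself undetected, and is not a measured minimum. The fitted change of 1.02 passed (SE 0.31, adjusted p = 0.0252). This call was lost without Mapk9 KO control replicate 2 (0.75, adjusted p = 0.107), without injured replicate 1 (0.95, adjusted p = 0.0651) or without injured replicate 3 (0.77, adjusted p = 0.0993). Background correction by normexp (neqc) with quantile normalization gave 0.82, quantile normalization alone 0.34, and the methods' t-test an adjusted p of 0.17.

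Cry1, which encodes the repressor that acts with the Period proteins, had 1 probe on the array, outside the normalized table. Its signal lay between 95 and 130 and its detection p between 0.679 and 0.998, so it was undetected on all 12 arrays and no change can be given.

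**Figure D1:**
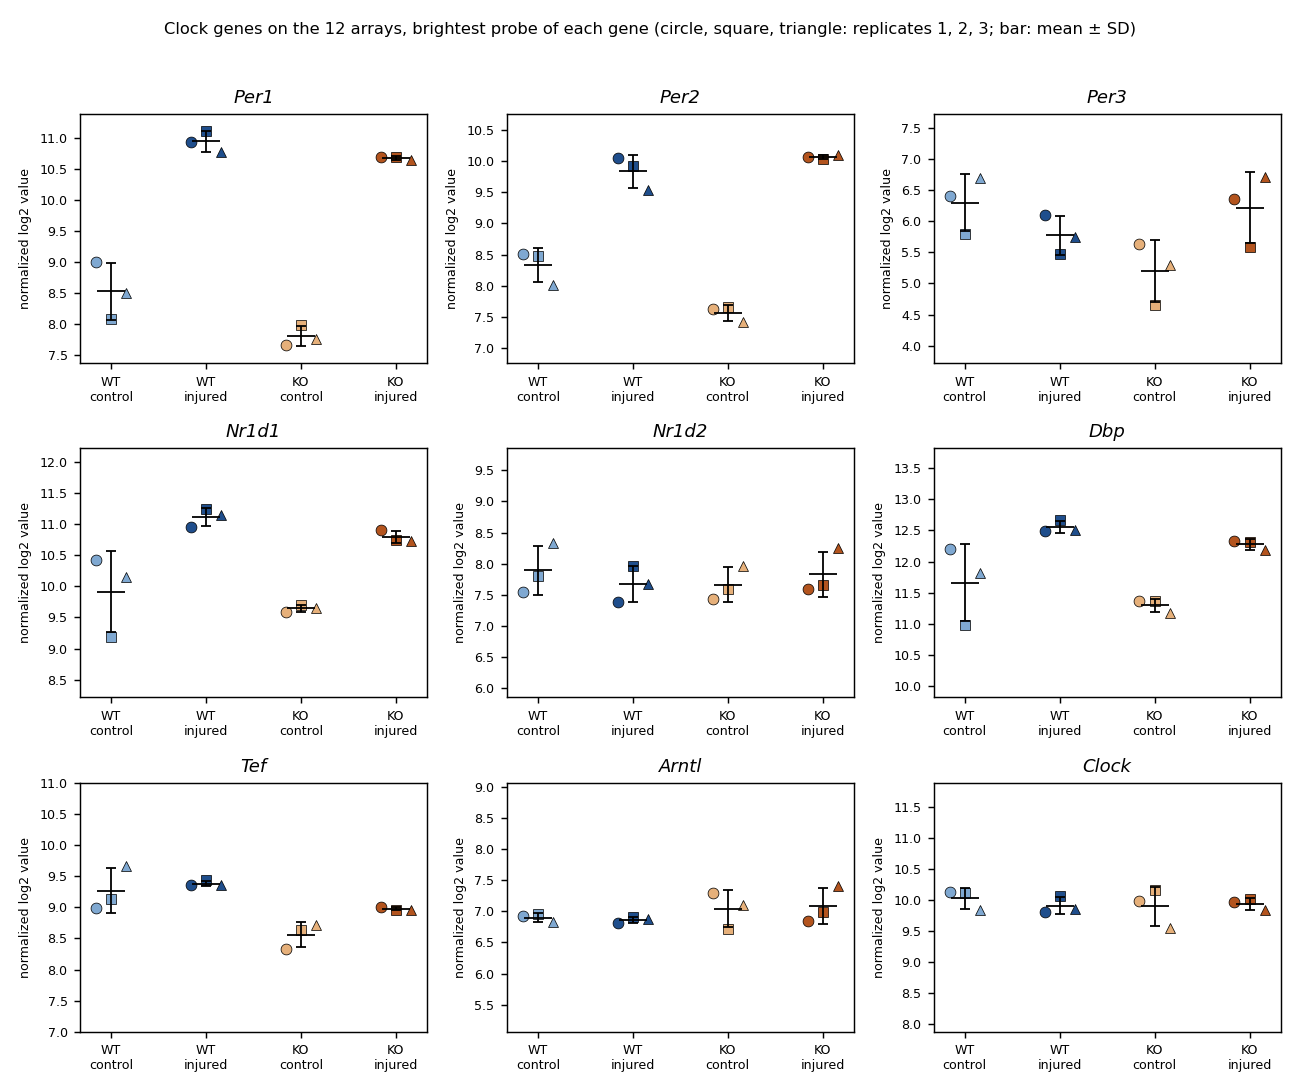
Normalized log2 values (vertical axes, each spanning its own range) of the 9 clock genes of the normalized table on the 12 arrays, at the brightest probe, by group (horizontal axes). Points are arrays, with replicates 1, 2 and 3 as circle, square and triangle, and bars are the mean ± SD of 3 arrays. Per1 and Per2 stand clear of their controls in both genotypes, Arntl and Clock stay level, and the WT control arrays of Nr1d1 and Dbp spread over 1.23.

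Nr1d1, which encodes the receptor REV-ERB alpha, was upregulated in both genotypes. Probe 1 read 10.42, 9.18 and 10.15 in WT control hips and 10.96, 11.24 and 11.14 in WT injured hips. In Mapk9 KO it read 9.59, 9.70 and 9.65 in control hips and 10.90, 10.75 and 10.73 in injured hips. Injured and control arrays did not overlap within a genotype, and WT control replicate 2 was the lowest array. The change was 1.19 in WT (SE 0.30, adjusted p = 0.0161) and 1.15 in Mapk9 KO (SE 0.16, adjusted p = 0.000287), and probe 2 passed in both genotypes as well (1.33 and 1.71). The WT change of probe 1 fell under the fold limit without WT control replicate 2 (0.83) and with quantile normalization alone (0.98), and missed the adjusted p without WT injured replicate 2 (0.0569) and by the methods' t-test (0.131). Probe 2 lost its WT call without WT control replicate 2 (0.88), WT injured replicate 2 (adjusted p = 0.0615) or WT injured replicate 3 (adjusted p = 0.0599), and by the methods' t-test (adjusted p = 0.155 after Benjamini-Hochberg).

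Nr1d2, the gene of the related receptor REV-ERB beta, gave no call. A further Nr1d2 probe, outside the normalized table, was undetected on all 12 arrays. In the table it read 7.55, 7.80 and 8.33 in WT control, 7.38, 7.96 and 7.68 in WT injured, 7.43, 7.60 and 7.97 in Mapk9 KO control, and 7.59, 7.66 and 8.25 in Mapk9 KO injured hips, and all 4 groups overlapped. The change was -0.21 in WT (95% interval -0.78 to 0.35) and 0.17 in Mapk9 KO (95% interval -0.34 to 0.67).

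Dbp, an output gene that the Clock and Arntl pair drives directly, was higher in injured hips but stayed under the fold limit. It read 12.20, 10.98 and 11.81 in WT control hips, 12.49, 12.66 and 12.51 in WT injured hips, 11.36, 11.36 and 11.18 in Mapk9 KO control hips, and 12.33, 12.32 and 12.18 in Mapk9 KO injured hips. Every injured array lay above every control array of its genotype. The change was 0.89 in WT (SE 0.29, adjusted p = 0.0479) and 0.98 in Mapk9 KO (SE 0.17, adjusted p = 0.000913). In WT it was 0.55 without control replicate 2 (adjusted p = 0.0983) and crossed the fold limit without control replicate 1 (1.16, adjusted p = 0.0241), and with any other array left out its adjusted p lay between 0.0648 and 0.136. It also crossed the limit in Mapk9 KO without control replicate 1 (1.01), control replicate 2 (1.00) or injured replicate 3 (1.02).

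Tef, a relative of Dbp, had probes that disagreed. Probe 1 read 8.99, 9.14 and 9.67 in WT control, 9.36, 9.43 and 9.35 in WT injured, 8.33, 8.63 and 8.72 in Mapk9 KO control, and 9, 8.96 and 8.96 in Mapk9 KO injured hips. The WT groups overlapped and the Mapk9 KO groups did not, with changes of 0.11 (SE 0.22, adjusted p = 0.759) and 0.41 (SE 0.17, adjusted p = 0.0872) that did not pass. Probe 2, at bases 18 to 67 of another transcript record of Tef, read 4.98, 5.11 and 6.52 in WT control, 2.90, 3.56 and 3.88 in WT injured, 6.78, 6.89 and 6.33 in Mapk9 KO control, and 3.74, 3.59 and 3.18 in Mapk9 KO injured hips. It was detected on 1 WT control array, on all 3 Mapk9 KO control arrays and on no injured array. Its fitted change was -2.09 in WT (SE 0.40, adjusted p = 0.0042), where the bound allows no fold, and -3.16 in Mapk9 KO (SE 0.22, adjusted p = 1.74e-06), where it was at least 1.75-fold lower. The WT call was lost with neqc (-0.82, adjusted p = 0.0628), with quantile normalization alone (-0.46) and by the methods' t-test (adjusted p = 0.0978), and quantile normalization alone also took the Mapk9 KO change under the fold limit (-0.86).

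Markers of other tissues were lower on the same arrays as Tef probe 2, among them those of skeletal muscle, which is attached to the hip. The mean of 19 muscle genes was 10.89, 10.14 and 12.32 on the WT control arrays, 7.49, 8.53 and 9.44 on the WT injured arrays, 12.60, 12.54 and 12.30 on the Mapk9 KO control arrays, and 8.26, 9.07 and 7.91 on the Mapk9 KO injured arrays. Of these 19 genes, 16 were downregulated in WT injured hips and 19 in Mapk9 KO injured hips. With the muscle mean as a covariate the WT change of Tef probe 2 was -0.47 (SE 0.41, adjusted p = 0.524) and the Mapk9 KO change -1.69 (SE 1.21, adjusted p = 0.728). That mean separates injured from control arrays in both genotypes. The mean of 3 adipocyte markers was likewise lower in injured hips, at 4.81 to 5.08 against 6.29 to 8.52 in WT and 4.38 to 4.75 against 7.04 to 9.51 in Mapk9 KO, as was that of 6 macrophage markers, at 8.42 to 8.94 against 9.64 to 10.03 and 8.15 to 8.41 against 9.85 to 10.05. The part of these tissues in the values of Tef probe 2, which was undetected on all injured arrays, was not settled by the covariate fit and was otherwise not tested.

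**Figure D2:**
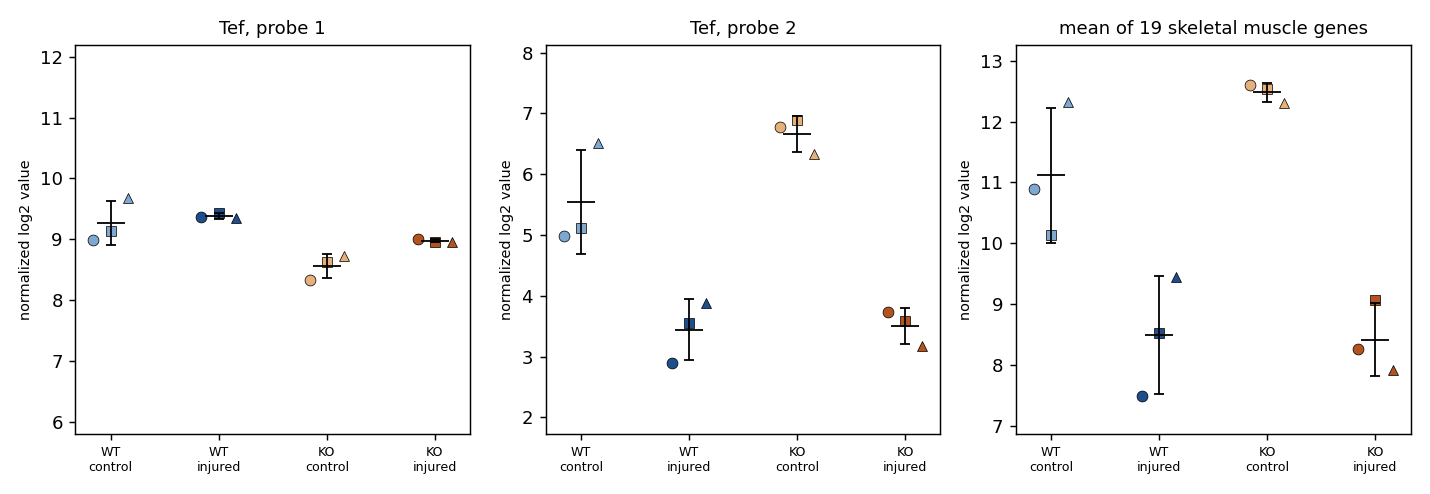
Normalized log2 values (vertical axes) of the Tef probes and of the mean of 19 skeletal muscle genes on each array, by group (horizontal axes). Points are arrays and bars the mean ± SD of 3. Tef probe 2 and the muscle mean are lower on every injured array than on every control array of the same genotype, and Tef probe 1 is not.

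Arntl and Clock, the activators of the loop, gave no call at their brightest probes. Arntl read 6.92, 6.95 and 6.82 in WT control, 6.81, 6.91 and 6.87 in WT injured, 7.30, 6.72 and 7.10 in Mapk9 KO control, and 6.85, 6.99 and 7.41 in Mapk9 KO injured hips. The groups overlapped, with a change of -0.03 in WT (95% interval -0.44 to 0.38) and 0.05 in Mapk9 KO (95% interval -0.43 to 0.53). Clock probe 1 lay between 9.80 and 10.13 on the WT arrays and between 9.55 and 10.16 on the Mapk9 KO arrays. Its change was -0.11 in WT (95% interval -0.55 to 0.33) and 0.04 in Mapk9 KO (95% interval -0.40 to 0.48). At Clock probe 2, in the same transcript record, the change in WT was -0.997, just under the fold limit (SE 0.20, adjusted p = 0.005), and in Mapk9 KO -0.49 (adjusted p = 0.147). It was detected on 1 of 3 WT injured arrays, and it passed when replicate 2 (-1.01) or replicate 3 (-1.05) of the WT control hips was left out, or replicate 1 of the injured hips (-1.09). A further Clock probe, outside the normalized table, was undetected on all 12 arrays.

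Counted by gene, 3 of the 9 measured clock genes were upregulated post injury in WT (Per1, Per2 and Nr1d1) and 0 were downregulated, where 7.51% of all genes were upregulated and 7.16% downregulated. In Mapk9 KO, 4 of the 9 were upregulated, Per3 being the fourth, and 0 were downregulated, where 9.01% of all genes were upregulated and 9.55% downregulated. Injured arrays lay above control arrays without overlap for 4 of the 9 genes in WT, against 20.5% of all genes, and for 5 of the 9 in Mapk9 KO, against 23.7%. By adjusted p alone, without the fold limit, 4 of the 9 were higher in WT, where 12.7% of all genes were higher and 12.7% lower, and 5 of the 9 in Mapk9 KO, where 18.1% were higher and 20.3% lower. With the replicate block Dbp missed that threshold in WT (adjusted p = 0.0502), which leaves 3. The median change of the 9 genes was 0.11 in WT and 0.98 in Mapk9 KO, beside -0.02 and -0.04 over all genes.

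Markers of cell types moved in the same comparisons. In injured hips 6 of 9 measured chondrocyte markers were upregulated in each genotype, their mean per array rising from between 10.74 and 11.42 to between 12.36 and 12.65 in WT and from between 10.68 and 11.42 to between 12.35 and 12.61 in Mapk9 KO. All 9 were detected on all 12 arrays. Of 6 macrophage markers 4 were downregulated in WT and 5 in Mapk9 KO, as were 2 of 3 adipocyte markers in each. The erythroid, neutrophil, endothelial and osteoblast lists had at most 2 called genes each. Apart from muscle, their part in the clock gene values was not tested. With the muscle mean as a covariate, Per1 kept its call in WT (2.51, adjusted p = 0.0196), as did Nr1d1 probe 2 (2.35, adjusted p = 0.0348), while Per2 (0.86, adjusted p = 0.139) and Nr1d1 probe 1 (1.85, adjusted p = 0.0623) did not. The muscle mean separates injured from control arrays in WT as well, and the SE of Per1 was then 0.47. In Mapk9 KO the muscle mean separates injured from control arrays by more than 3 log2 units, and with it in the fit 0 members passed. The changes were then 3.02 for Per1 (SE 1.00), 2.50 for Per2 (SE 0.98), 1.07 for Nr1d1 probe 1 (SE 0.96) and 0.15 for Nr1d1 probe 2 (SE 1.01).

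**Figure D3:**
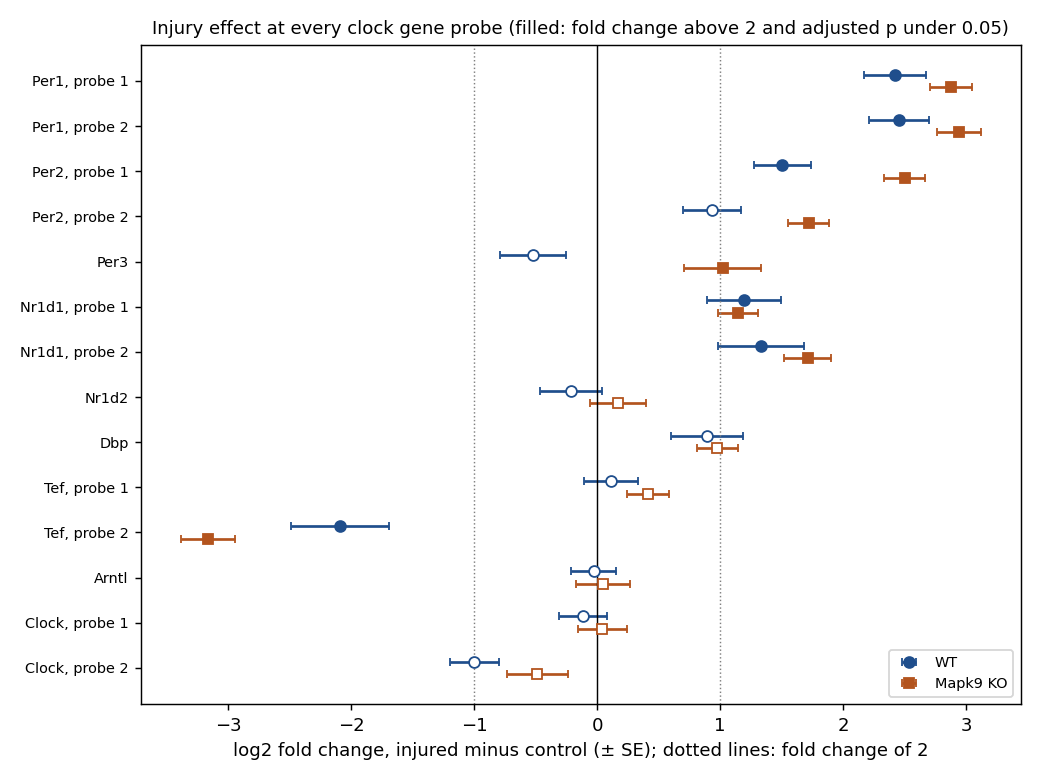
Log2 fold change of injured minus control hips (horizontal axis, ± SE) at each of the 14 clock gene probes of the normalized table, in WT (circles) and Mapk9 KO (squares). Filled symbols mark probes that passed, and dotted lines mark a fold change of 2. Both probes of Per1 and of Nr1d1 are filled in both genotypes, while those of Tef fall on opposite sides of 0. Tef probe 2 was undetected on all injured arrays and Per3 on the Mapk9 KO control arrays, so their fitted values are not measured folds.

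Mapk9 itself checks the labels. Its brightest probe lay between 10.05 and 10.90 on the 6 WT arrays and between 8.69 and 9.28 on the 6 Mapk9 KO arrays. It was lower in Mapk9 KO by limma in control hips (-1.57, adjusted p = 0.0151) and in injured hips (-1.57, adjusted p = 0.00485), though still detected on all 6 Mapk9 KO arrays. The other Mapk9 probe was undetected on these arrays. In control hips it was at least 1.92-fold lower in Mapk9 KO (adjusted p = 0.00244 by limma).

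In control hips, 8 of the 9 clock genes had a lower mean in Mapk9 KO than in WT, with a median difference of -0.36 beside -0.01 over all genes. By limma 0 of the 9 passed. Of the 9, 4 were lower with an unadjusted p under 0.05, against 3.3% of all genes, and the methods' t-test with adjustment also gave 0 calls. Only 0.0778% of all genes passed as lower and 0.0324% as higher in this comparison. The 3 Mapk9 KO control arrays lay below all 3 WT control arrays for 4 of the 9 genes, against 6.52% of all genes. These were Per1 (-0.72, 95% interval -1.29 to -0.15, adjusted p = 0.64), Per2 (-0.77, 95% interval -1.25 to -0.28, adjusted p = 0.545), Per3 (adjusted p = 0.521) and Tef probe 1 (-0.71, 95% interval -1.24 to -0.18, adjusted p = 0.609). By the bound, Per3 was 1.28-fold lower, but this includes WT control replicate 2, itself undetected, and is not a measured minimum. Tef probe 2 was higher in Mapk9 KO by 1.13 (adjusted p = 0.596), and passed without WT control replicate 3 (1.62, adjusted p = 0.00525). The muscle mean was 12.30 to 12.60 on the Mapk9 KO control arrays and 10.14 to 12.32 on the WT control arrays, and its part in these differences was not tested.

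In injured hips 0 of the 9 genes passed by limma between genotypes, where 0.0713% of all genes passed as higher and 0.0973% as lower. Tef alone was lower with an unadjusted p under 0.05 (-0.41, adjusted p = 0.319), as were 5.77% of all genes, and the methods' t-test gave 0 calls. Mapk9 KO arrays lay below WT arrays without overlap for Per1, Dbp, Tef and Nr1d1, 4 of the 9 genes, against 10.1% of all genes. Their differences were between -0.27 and -0.41, and Per2 differed by 0.23 (95% interval -0.17 to 0.63). At probe 2 of Per1, Nr1d1 and Tef the injured arrays of the genotypes overlapped.

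The difference of the injury effects between genotypes was tested as an interaction over all 12 arrays. By limma 0 members passed, as did 0% of all genes. Per2 and Per3 were the members with an unadjusted p under 0.05, as had 8.81% of all genes. The effect on Per2 was larger in Mapk9 KO by 0.99 (SE 0.27, adjusted p = 0.312 by limma). Pair by pair, by replicate number, Per2 rose by 1.55, 1.44 and 1.53 in WT and by 2.44, 2.38 and 2.68 in Mapk9 KO. The share of all genes whose pairs separate in this way was not counted. Without WT control replicate 3 the interaction of Per2 passed (1.16, adjusted p = 0.0492). For Per3 the pairs gave -0.31, -0.31 and -0.94 in WT and 0.71, 0.92 and 1.43 in Mapk9 KO, and the interaction was 1.54 (SE 0.46, adjusted p = 0.325 by limma), a fitted value of a probe near background. With the replicate number as a block, which pairs the samples, the interaction of Per3 passed (SE 0.26, adjusted p = 0.0365) and that of Per2 did not (adjusted p = 0.065). How many of all genes passed with the block was not counted. For Per1, Dbp, Nr1d1, Nr1d2, Tef, Arntl and Clock the interaction at probe 1 lay between -0.05 and 0.45.

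**Figure D4:**
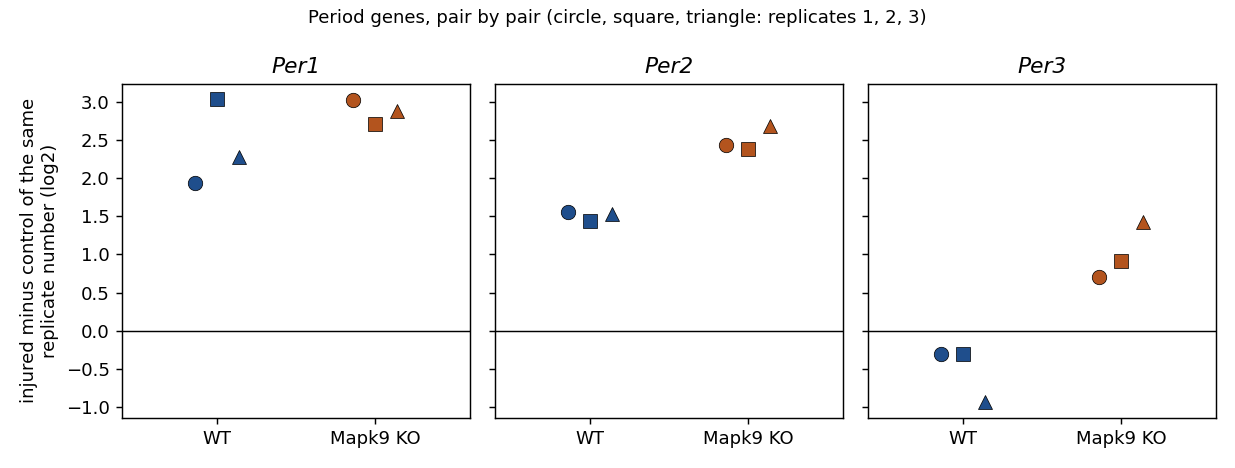
Injured minus control value (vertical axis, log2) of the Period genes for each pair of arrays with the same replicate number, in WT and Mapk9 KO (horizontal axis). Each point is 1 pair, and the line marks 0. All pairs rise for Per1 and Per2, and for Per3 the 3 WT pairs lie below 0 and the 3 Mapk9 KO pairs above it.

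The spread among control hips varied from gene to gene. Among WT control hips Dbp had an SD of 0.63 and Nr1d1 of 0.65, at percentiles 92.9 and 93.6 of the SDs of all genes, and in Mapk9 KO control hips 0.11 and 0.06, at percentiles 14.5 and 4.61. WT control replicate 2 was the lowest WT control array for Per1, Per3, Nr1d1 and Dbp, and replicate 1 the highest for Per1, Per2, Nr1d1 and Dbp. The order was the other way for Arntl, with an SD of 0.07 in WT and 0.30 in Mapk9 KO control hips, and Clock, with 0.17 and 0.32, while Per3 had 0.46 and 0.50. No difference in spread was tested. Replicate 2 also had the lowest muscle mean of the WT control arrays (10.14), whose part was not tested, and replicate 3, with the highest (12.32), lay between the others for Per1, Nr1d1 and Dbp. The mean of the chondrocyte markers was 11.42, 10.74 and 11.31 on these arrays, in the same order as Per1, Nr1d1 and Dbp, and its part was not tested.

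A wider list of 18 clock genes gave 11 in the normalized table. The other 7 (Npas2, Arntl2, Rorb, Bhlhe41, Hlf, Fbxl21 and Wee1) had probes outside it alone. In each genotype 5 of the 11 were upregulated and 0 downregulated, the same genes in both, beside the 7.51% and 9.01% of all genes given above. Ciart, a repressor of the Clock and Arntl pair, read 6.15, 5.62 and 6.37 in WT control and 9.51, 9.72 and 9.40 in WT injured hips, and 5.44, 5.56 and 6.36 in Mapk9 KO control and 9.74, 9.61 and 9.83 in Mapk9 KO injured hips. Injured and control arrays did not overlap within a genotype, with fitted changes of 3.49 (SE 0.24, adjusted p = 1.12e-05) and 3.94 (SE 0.24, adjusted p = 8.69e-07). This probe was detected on 2 of 3 WT control, 1 of 3 Mapk9 KO control and all injured arrays, so the size of the changes rests on control values near background. At its other probe, undetected in Mapk9 KO control hips, Ciart was at least 15.2-fold higher in Mapk9 KO injured hips. Its window above holds 3 E-boxes.

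Nfil3, which encodes a repressor that binds the same D-boxes as the Dbp and Tef proteins, read 8.92, 8.89 and 8.68 in WT control and 12.32, 12.33 and 12 in WT injured hips. It rose by 3.39 in WT (SE 0.20, adjusted p = 3.93e-06) and by 3.50 in Mapk9 KO (SE 0.20, adjusted p = 5.59e-07). Noct, a rhythmic gene of the clock output, was upregulated by 2.10 and 2.41. Bhlhe40, whose protein represses at E-boxes, was upregulated by 1.46 and 1.94. Csnk1d, a kinase gene that sets the stability of the Period proteins, was upregulated by 1.88 and 1.72 at its brightest probe. Its 5 probes disagreed, with changes between -0.01 and 1.88 in WT and from -0.24 to 1.72 at the 4 probes detected in Mapk9 KO control hips. The fifth, undetected there, was at least 3.6-fold higher.

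The remaining genes of the wider list gave no call at their brightest probes. Cry2, the relative of Cry1, was higher in both genotypes but under the fold limit (0.95, adjusted p = 0.0248, and 0.90, adjusted p = 0.00866), and passed in WT with neqc (1.01), with the muscle covariate (1.64) or without any of 3 arrays (control replicate 1 or 3, injured replicate 1, from 1.052 to 1.106), and in Mapk9 KO without control replicate 3 (1.12). Timeless gave -0.22 in WT and 0.90 in Mapk9 KO, an interaction of 1.12 (adjusted p = 0.277), and passed in Mapk9 KO without control replicate 3 (1.053) but not with all arrays (adjusted p = 0.00399, under the fold limit). Usp2 gave -0.03 in WT and -0.98 in Mapk9 KO (adjusted p = 0.000907), and passed there as lower without control replicate 1 (-1.003) or injured replicate 1 (-1.06). Rora, Btrc and Csnk1e lay between -0.16 and 0.82 in WT and between -0.48 and 0.55 in Mapk9 KO. The other Csnk1e probe passed in Mapk9 KO (1.19, adjusted p = 0.00045).

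**Figure D5:**
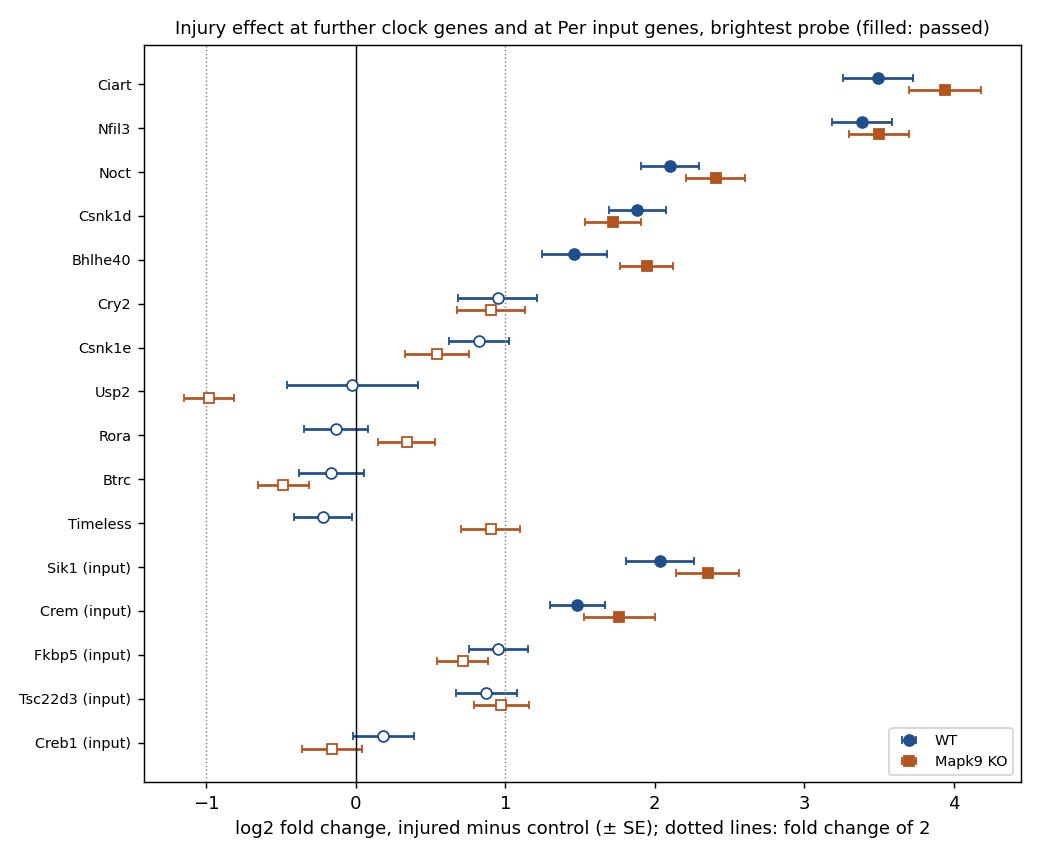
Log2 fold change of injured minus control hips (horizontal axis, ± SE) at the brightest probe of the 11 measured genes of the wider clock list and the 5 measured Per input genes, in WT (circles) and Mapk9 KO (squares). Filled symbols passed, and dotted lines mark a fold change of 2. Ciart and Nfil3 lie farthest to the right in both genotypes, and Sik1 was undetected in control hips, as was Ciart on some control arrays, so their fitted values are not measured folds.

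Genes of the cAMP and glucocorticoid signals that act on Per1 and Per2 formed a list of 9, of which 5 were in the normalized table. In each genotype 2 were upregulated and 0 downregulated, where 7.51% of all genes in WT and 9.01% in Mapk9 KO were upregulated. Crem, a cAMP-responsive transcription factor gene, was upregulated by 1.48 in WT (SE 0.18, adjusted p = 0.000352) and by 1.76 in Mapk9 KO (SE 0.24, adjusted p = 0.000186). Sik1, a kinase gene induced by cAMP, was undetected in control hips and was at least 2.85-fold higher in WT injured hips (adjusted p = 0.000199) and at least 2.83-fold higher in Mapk9 KO injured hips (adjusted p = 1.09e-05). With quantile normalization alone Sik1 gave 0.90 in WT and 0.998 in Mapk9 KO, and Crem gave 0.96 in WT, all under the fold limit. Tsc22d3 and Fkbp5, known glucocorticoid targets, were higher in both genotypes with an adjusted p under 0.05 but under the fold limit, by 0.87 and 0.95 in WT and 0.97 and 0.71 in Mapk9 KO. Creb1 gave 0.18 and -0.16.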

How the data were processed

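RNA was measured on 12 Illumina mouse BeadChips, 3 for each of 4 groups taken from the sample titles. The authors deposited signal intensities of 45281 probes with detection p-values, and log2 values of 21004 probes, which they had background-corrected with negative control probes and normalized with vsn (version not given in the sources used here). Here the log2 values were tested in R 4.3.3 by limma 3.58.1 (lmFit, eBayes, Benjamini-Hochberg over every probe of the table): injury within each genotype and genotype within control and injured hips, over 6 arrays each, and the interaction over 12. Calls needed a change of more than 2-fold and an adjusted p below 0.05, the interaction only the latter. No source says that the Mapk9 KO samples came from separate animals, so their p-values measure the spread between samples.

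For probes undetected throughout a group, "at least N-fold" compares the other group's mean with the dim group's mean after raising each array to its lowest detected value where that was higher. The other group's mean keeps its own undetected arrays as they are, which concerns Per3. Same-numbered samples deviated together from their group means (r from 0.153 to 0.39 over 18 pairs, against -0.289 to 0.0825 over 36 others). Deviations from a group mean cancel within a group, so these ranges are not independent of each other. The numbers were taken as pairs only for the replicate block and the pair-by-pair values. The main fits were unpaired. Alternatives were neqc (offset 16), quantile normalization alone, subtracted array medians, a detection filter of 3 arrays, 1 fit to all arrays, blocks by replicate or label code number, a muscle covariate, the methods' t-test, any probe of a gene, no fold limit, and each array left out. Detected probes per array numbered 16930 to 18969, the median signal was 121 to 190, and normalized array medians were 7.55 to 7.70. The number of arrays limits the precision. The scripts were tested on simulated data.

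Genes and lists were chosen with earlier results of these data known. All 10 clock genes are named with every probe, called genes of the wider clock and Per input lists by name and the others by count and range, and the 3 genes most like Dbp and Arntl. Uncalled genes of these lists that the text names were picked after their values were seen. Some genes first listed are not reported here. The files name Bhlhe40 as Bhlhb2, Ciart as Gm129, Noct as Ccrn4l and Sik1 as Snf1lk.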

Additional observations from a re-analysis of the deposited data

Results flagged for a closer look

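For Per3 the injured array had the lower value in all 3 WT pairs and the higher in all 3 Mapk9 KO pairs, and the fitted injury effects differed by 1.54 (SE 0.46, adjusted p = 0.325 by limma, adjusted p = 0.0365 with the replicate block). The probe was near background, detected on 2 control and 1 injured array of WT and on 0 control and 2 injured arrays of Mapk9 KO, so this difference is not a measured fold, and the WT change by itself did not pass (adjusted p = 0.195). The share of all genes with such pairs, or passing with the block, was not counted.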

How the results depend on the processing

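The directions of Per1, Per2, Nr1d1, Ciart and Nfil3 post injury held under every alternative run. With each array left out in turn, 2 to 4 members were upregulated in WT, 3 to 5 in Mapk9 KO, 0 differed by genotype at their brightest probes and 0 to 1 passed the interaction, while 5 to 6 wider clock genes passed in WT and 5 to 7 in Mapk9 KO, and 2 to 3 Per input genes in each genotype. With the replicate block 1 member (Per3) passed the interaction. The block changed no other call of a gene named here at the fold limit. Without WT control replicate 3, 1 member (Per2) passed the interaction. How many of all genes passed it with the block, or without this array, was not counted. With the muscle covariate 1 member passed in WT (Per1) and 0 in Mapk9 KO, where 0 wider clock genes and 0 Per input genes passed either. There the changes of Nfil3 (5.40, SE 1.02), Csnk1d (3.46, SE 0.95), Crem (3.76, SE 1.25) and Ciart (2.40, SE 1.36) stayed above the fold limit with wide errors. That covariate reversed Per3 to -2.61 (SE 1.47) and Noct probe 2 to -0.66 (SE 1.74) in Mapk9 KO, where it separates the groups. With quantile normalization alone 0 Per input genes passed in WT and 1 in Mapk9 KO. Without the fold limit 9 wider clock genes passed in Mapk9 KO (7 higher, 2 lower), where 18.1% of all genes were higher and 20.3% lower, and 4 Per input genes were higher in each genotype, against 12.7% of all genes in WT. The other 142 counts of calls under alternatives stayed within 1.5 times the value reported. The median of all genes moved to between -0.04 and 0.03 with the scaling. Where no value shows it, the cause of these changes was not tested.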

Other observations

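Over the 12 arrays, which form 4 groups, the genes whose values ran most like those of Dbp among 15415 were Sh3gl1 (Pearson's r = 0.981, Spearman's rho = 0.958), Chst1 (0.978 and 0.972) and Rusc2 (0.977 and 0.958). For Arntl the nearest were Prkaa1 (0.829 and 0.615), A630006M12Rik (0.818 and 0.72) and Ggn (0.794 and 0.608). The genes nearest to Arntl were near background, at 5.20 to 6.62, where the lowest detected value of an array was 5.62 to 6.05. These likenesses are descriptions of arrays that share groups and replicate numbers, picked as the highest of many, and carry no test.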
